A study of Mus musculus with 51 samples.

Results

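The regions described here were distal H3K27ac peaks of early astrocytes (eA, day 1) that had no H3K27ac peak in astroglial progenitors (aNPC) or in late astrocytes (lA, day 5) and that overlapped an H3K4me1 peak in both aNPC and eA. The members were chosen by the measured peaks themselves, so their H3K27ac and H3K4me1 state in aNPC and eA and their H3K27ac state in lA are given as a description, with no test. The rule kept peaks on chromosomes 1 to 19 of mm9 without an overlap of 1 bp or more with an aNPC or lA H3K27ac peak, with such an overlap with an aNPC and an eA H3K4me1 peak, and with the centre more than 1 kb from every coding transcription start site (TSS). It left 6845 of the 83437 eA H3K27ac peaks, called primed transient peaks below.

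ChIP-seq for H3K27ac and H3K4me1 was performed at 3 stages of an in vitro course from mouse embryonic stem cells of a C57/BL-6 background. The aNPC, the group without differentiation medium, grew with N2, EGF and FGF-2. The eA and lA were aNPC that had spent 1 day and 5 days in a medium with FBS and LIF, so all 3 groups shared the stem cell origin, and none is labelled with an siRNA or an altered genotype. The cells were grown in vitro, and the peaks describe the culture as a whole: fewer cells with a mark and less of the mark in each cell cannot be told apart. The authors merged 2 biological replicates per stage and mark before peak calling, so each stage has 1 peak list per mark, and the spread between cultures could not be set beside any value. The aNPC lists held 79417 H3K27ac and 154243 H3K4me1 peaks, the eA lists 83437 and 185482, and the lA lists 92705 and 208338. H3K27ac marked the promoter of 16, 16 and 16 of 20 astrocyte marker genes in aNPC, eA and lA, of 18, 18 and 17 of 20 progenitor and radial glia genes, and of 6, 6 and 2 of the 18 neuronal genes counted. The counts of astrocyte markers were equal but not the genes behind them, since Aqp4 had a promoter peak in lA alone, Apoe in eA alone and S100b in aNPC alone. The lA list held fewer promoter peaks at neuronal genes.

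Enhancers are stretches of DNA away from a promoter at which transcription factors bind and raise the transcription of a gene. H3K4me1, a methyl group on lysine 4 of histone H3, marks enhancers whether they are in use or not. H3K27ac, an acetyl group on lysine 27, marks those in use, and an enhancer with H3K4me1 but without H3K27ac is called primed. Astrocytes arise from progenitors that first make neurons, and nuclear factor I (NFI), Sox9, Stat3 and AP-1 factors are known for acting at enhancers of astrocyte genes.

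The sequences of 4 members are shown because they carry the letters that the motif counts below rest on or belong to the member with a PCR amplicon of the study. Each is the 200 bp around the summit in mm9, on the plus strand from 5′ to 3′, with the letters of the motif named beside it in capitals. The Lrp2 window also holds a bHLH match and the Xpr1 window an NF1 half-site match, both left in lower case.
Lrp2 member, AP-1 letters in capitals, chr2:69382168-69382367, strand +: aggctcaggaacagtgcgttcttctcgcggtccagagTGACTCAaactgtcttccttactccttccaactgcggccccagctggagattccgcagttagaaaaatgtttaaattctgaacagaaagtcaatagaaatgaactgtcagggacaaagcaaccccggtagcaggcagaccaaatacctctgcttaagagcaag
Nub1 member, NF1 full-site letters in capitals, chr5:24201728-24201927, strand +: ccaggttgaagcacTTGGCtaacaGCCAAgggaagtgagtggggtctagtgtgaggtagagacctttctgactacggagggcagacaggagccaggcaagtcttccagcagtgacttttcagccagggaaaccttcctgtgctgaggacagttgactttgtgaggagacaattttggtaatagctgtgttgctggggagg
Xpr1 member, Sox letters in capitals, chr1:157275017-157275216, strand +: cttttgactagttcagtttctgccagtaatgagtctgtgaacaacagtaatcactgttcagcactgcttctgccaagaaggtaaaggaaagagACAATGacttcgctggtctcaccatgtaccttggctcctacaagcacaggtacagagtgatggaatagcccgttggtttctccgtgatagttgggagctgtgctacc
Gm17462 member with the Cav3 amplicon, TEAD letters in capitals, chr6:112374091-112374290, strand +: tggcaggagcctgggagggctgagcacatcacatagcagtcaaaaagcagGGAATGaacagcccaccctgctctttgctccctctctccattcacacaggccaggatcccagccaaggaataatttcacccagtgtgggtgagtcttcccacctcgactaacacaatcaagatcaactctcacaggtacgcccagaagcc

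The Lrp2 member lay in an intron of Lrp2, which encodes the endocytic receptor megalin, and had the highest fold, 6.86, among members with AP-1 letters. The Nub1 member lay in an intron 10198 bp from the nearest TSS and had the highest fold, 5.27, of the 4 members with both NF1 arms. The intergenic Xpr1 member had the highest fold, 9.25, of those with Sox letters. The Lrp2, Xpr1 and Gm17462 members overlapped an lA H3K4me1 peak, and the Nub1 member did not. The fold is the authors' enrichment of fragments at the summit over the local background of the same library.

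Of the 63750 distal eA H3K27ac peaks, 12804 (20.1%) had no aNPC or lA H3K27ac peak, and 75.7% overlapped both an aNPC and an eA H3K4me1 peak. The primed transient peaks made up 53.5% of those 12804. A further 2547 (19.9%) overlapped an eA but no aNPC H3K4me1 peak and are called unprimed transient, 576 overlapped an aNPC but no eA H3K4me1 peak, and 2836 (22.1%) overlapped neither. Another 1140 peaks met every condition but lay within 1 kb of a TSS. The peaks that met the same H3K4me1 conditions, had no aNPC H3K27ac peak and kept an H3K27ac peak in lA numbered 12954 and are called primed sustained. At the edge of the rule, the members nearest to a TSS lay 1001 bp from that of Bola3 (fold 2.96), 1005 bp from that of Pde4d (3.59) and 1006 bp from that of Dpy19l3 (3.12). Just outside it were peaks 1000 bp from the TSS of Dab2 (2.44), 995 bp from that of C1ql1 (3.30) and 995 bp from that of Rad54l (2.84).

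The primed transient peaks were low and narrow among eA H3K27ac peaks. Their median fold was 3.59, with quartiles of 3.16 and 4.02 and a range from 1.41 to 15.2. The median fold was 3.48 for unprimed transient peaks, 4.25 for primed sustained peaks and 4.01 for all distal eA peaks. The median member stood at percentile 30.1 of the eA list by fold, against 49.8 for primed sustained peaks, and 18.1% of members reached the median fold of the list. Members were 210 bp wide at the median, with quartiles of 160 and 295 bp, and primed sustained peaks were 398 bp wide. The −log10 q at the summit had a median of 5.00 in members, 4.53 in unprimed transient, 9.11 in primed sustained and 7.85 in all distal peaks. At or above a −log10 q of 5 stood 54.5% of members, 44.8% of unprimed transient and 81.7% of primed sustained peaks.

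**Figure D1:**
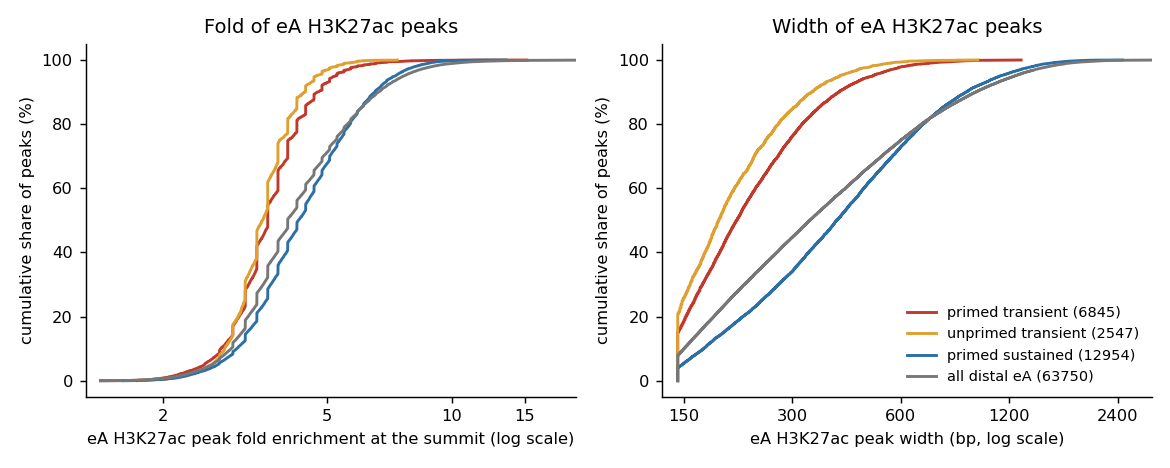
Cumulative share of eA H3K27ac peaks by fold at the summit and by width in bp, for primed transient, unprimed transient, primed sustained and all distal eA peaks. The primed transient curve lies close to the unprimed transient one and to the left of the primed sustained one, with median folds of 3.59, 3.48 and 4.25 and median widths of 210, 187 and 398 bp.

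The depth behind a peak was inferred from the folds, many of which rise in equal steps, as they would where the peak caller used the background of the whole genome and added a pseudocount of 1. This reading rests on the form of the values and not on a stated parameter. In the eA H3K27ac list that background was 3.74 fragments per position, and the lowest fragment count found at 100 peaks or more was 12. The folds of 3286 members (48.0%) were whole fragment counts, within 0.0005 of a step. The median of these members was 17 fragments at the summit, with quartiles of 15 and 19, and the 95% exact Poisson interval of a count of 17 runs from 9.90 to 27.2. That interval is of the count of 1 peak and covers counting error only. Among the peaks with whole counts, the median was 16 fragments in unprimed transient peaks (46.6% of the set) and 18 in primed sustained peaks (26.9% of the set). In the aNPC and lA H3K27ac lists the lowest count found at 100 peaks or more was 13 and 14 fragments. The backgrounds of those lists were 4.35 and 4.09 fragments, so the counts are not on the scale of the eA list. The other members have no recovered count. The absence of a peak in aNPC or lA means a signal under the level at which those lists begin, not the absence of H3K27ac.

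Acetylation was also close by in the other stages. An aNPC or lA H3K27ac peak lay within 500 bp of 3068 members (44.8%), within 200 bp of 1762 and within 50 bp of 549, though none overlapped by the rule. Within 500 bp the share was 38.9% for unprimed transient peaks and 88.0% for all distal eA peaks, most of which overlap such a peak. The median gap to the nearest such peak was 792 bp. The gap was 6685 bp for aNPC and 2532 bp for lA, and lA was the nearer of the stages for 62.8% of members, 72.4% of unprimed transient peaks and 44.5% of all distal eA peaks, many of which overlap a peak of both stages. The lA list is also the longer of the 2. An aNPC H3K27ac peak lay within 1 kb of 27.5% of members and 12.7% of unprimed transient peaks, and an lA one within 1 kb of 42.7% and 43.7%. A member near Id3, which encodes an inhibitor of bHLH factors, had a fold of 4.78 and ended 1 bp from an lA H3K27ac peak. The Sox9 member at chr11:112685259-112685756 had a fold of 4.19, and its neighbours lay 222 bp away in aNPC and 132 bp away in lA. Further from such peaks, the member upstream of Runx3 at chr4:134635661-134636604, with a fold of 5.06, lay 125499 bp from an aNPC and 32483 bp from an lA H3K27ac peak. The members thus ranged from flanks of regions acetylated at another stage to sites far from any such region.

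H3K4me1 lay over every member in aNPC and eA, by the rule, and over most of them in lA, where 845 had no such peak. An H3K4me1 peak held the H3K27ac summit of 85.3% of members at the aNPC stage, 91.9% at eA and 77.9% at lA. Among all distal eA peaks the shares were 69.0%, 82.2% and 77.5%. Some of those peaks lack the aNPC or eA H3K4me1 peak that the rule asks of members, so the comparison is uneven at these stages. Primed sustained peaks, which met the same H3K4me1 conditions but kept lA H3K27ac, had shares of 80.3%, 94.8% and 89.2%. Against them, members stood higher at the aNPC stage and lower at eA and lA. The shares of members that lay wholly inside H3K4me1 peaks were 56.4%, 69.2% and 54.2%. Over a member, the median width of the H3K4me1 peak was 680 bp for aNPC, 820 bp for eA and 735 bp for lA. Within its own list, the median peak stood at fold percentile 65.0 in aNPC, 71.1 in eA and, for the 6000 members with such a peak, 69.2 in lA. The medians over all distal eA peaks with an H3K4me1 peak were 69.8, 71.0 and 68.8. Over primed sustained peaks they were 65.0, 74.1 and 71.2. The members' H3K4me1 level was thus near that of all distal peaks in eA and lA and lower in aNPC. In aNPC it equalled that of primed sustained peaks, which also lack aNPC H3K27ac, while all distal peaks include some acetylated in aNPC. Unprimed transient peaks had lower H3K4me1 percentiles, with medians of 52.2 in eA and 60.5 in lA. The eA H3K4me1 peaks that held members numbered 6379, of which 446 held 2 or more and 1569 (24.6%) also held another eA H3K27ac peak.

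**Figure D2:**
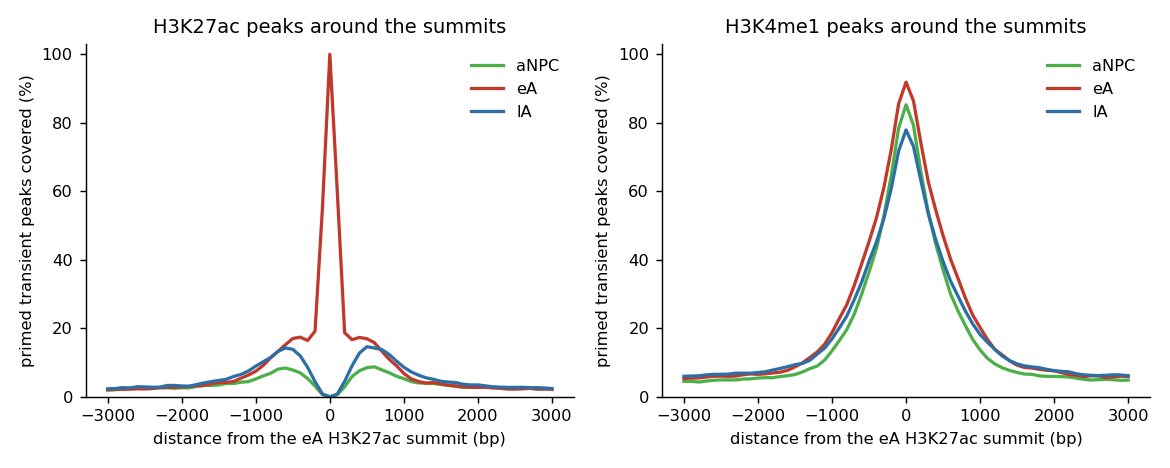
Share of the 6845 primed transient peaks, in percent, that were covered by a peak of each list at distances in bp from the H3K27ac summit, by mark and stage. H3K4me1 covered the summit of 85.3%, 91.9% and 77.9% of members in aNPC, eA and lA, while the H3K27ac lists of aNPC and lA rise only beside the summit, as the rule requires.

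The lA H3K4me1 list was not part of the rule, and was used to ask how often the primed state outlasted the acetylation. An lA H3K4me1 peak overlapped 6000 of 6845 members, or 87.7% (95% Wilson interval 86.9 to 88.4), against 86.4% of all distal eA peaks. The share was 71.6% (69.8 to 73.3) in unprimed transient peaks and 96.4% (96.1 to 96.7) in primed sustained peaks. Members exceeded unprimed transient peaks by 16.0 percentage points (odds ratio 2.81, 95% interval 2.52 to 3.15, Fisher's exact test, two-sided, adjusted p = 1.76e-70). Against primed sustained peaks their share was lower, with a difference of -8.77 points (odds ratio 0.263, 0.234 to 0.296, Fisher's exact test, adjusted p = 2.26e-115). By definition, primed sustained peaks differ from members in lA H3K27ac and unprimed transient peaks in aNPC H3K4me1. The part of these choices in the differences was not tested. Both tests compared peaks of merged lists, not cultures, and members that share an H3K4me1 peak are not independent. The members' share stood near that of all distal eA peaks, so retention of H3K4me1 was not particular to them. The order of the sets was the same among eA peaks 150 to 300 bp wide, at 87.5% of members, 71.0% of unprimed transient and 94.9% of primed sustained peaks, and among peaks whose eA H3K4me1 fold percentile lay between 50 and 75, at 88.0%, 76.0% and 97.1%.

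Members that kept H3K4me1 in lA had carried stronger H3K4me1 before. With members split by eA H3K4me1 fold into 4 groups of nearly equal size, 77.6%, 87.3%, 91.4% and 94.4% had an lA H3K4me1 peak, from the lowest group to the highest. By aNPC H3K4me1 fold the shares were 81.9%, 85.7%, 90.9% and 91.7%. By the fold of the eA H3K27ac peak itself they were 84.1%, 86.8%, 88.8% and 90.6%. By the gap to the nearest lA H3K27ac peak they followed no steady order, at 90.8% for the smallest gaps, up to 277 bp, and then 86.0%, 85.9% and 88.0%. The 845 members without an lA H3K4me1 peak had a median eA H3K4me1 fold of 3.78, against 4.79 in the others, and their eA H3K4me1 peaks were 572 bp wide, against 852 bp. Width and level are those of the same peaks, and their part in the share was not tested. Peaks that kept and lost H3K4me1 had the same median GC content, 47.5%.

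**Figure D3:**
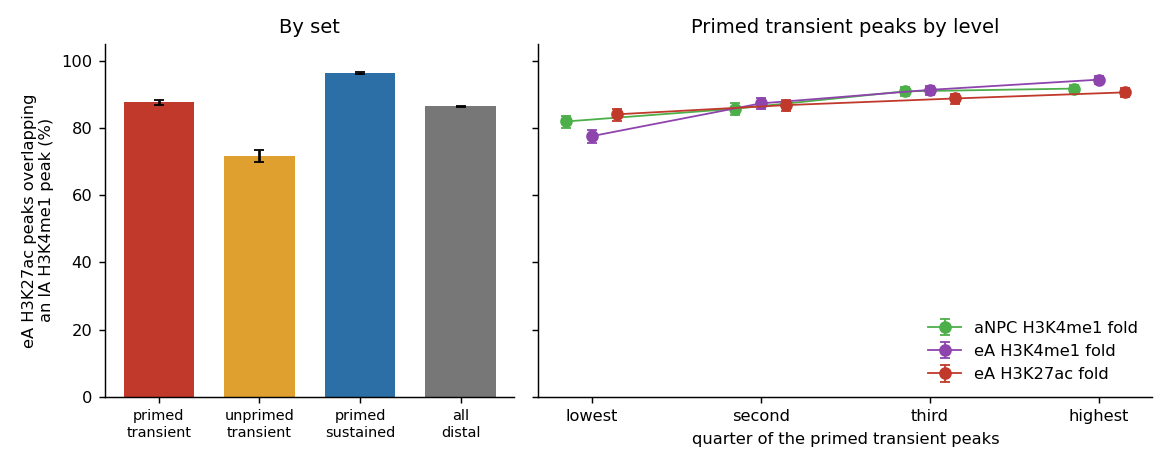
Share of eA H3K27ac peaks, in percent, that overlapped an lA H3K4me1 peak, by set of peaks and, for primed transient peaks, by 4 groups of rising fold, with 95% Wilson intervals as bars. Primed transient peaks (87.7%) lay between unprimed transient (71.6%) and primed sustained peaks (96.4%), and the share rose from 77.6% to 94.4% over the 4 groups of eA H3K4me1 fold.

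The members lay far from promoters, with a median distance of 31667 bp to the nearest coding TSS, against 33411 bp for all distal eA peaks. The centre lay in an intron of a coding gene for 53.6% of members, in an exon for 4.21% and between genes for 42.2%, while 51.6% of all distal peaks were intronic. The intron share was lower than that of unprimed transient peaks, 58.0%, with a difference of -4.39 points (odds ratio 0.837, 0.763 to 0.917, Fisher's exact test, adjusted p = 0.000144). It was 3.11 points above that of primed sustained peaks, 50.5% (odds ratio 1.13, 1.07 to 1.20, Fisher's exact test, adjusted p = 4.31e-05). These tests too compared peaks of merged lists, not cultures, and members in the same intron are not independent. The difference from unprimed transient peaks was -2.76 points, with an adjusted p of 0.0506 in Fisher's exact test, when a −log10 q of at least 5 was asked of every list. Members made up between 9.55% and 11.8% of the distal eA peaks of a chromosome. Most stood apart from one another: stitched at 10 kb, they formed 5958 groups, of which 5168 held 1 member, 703 held 2 and 87 held 3 or more. The largest group had 5 members, at Klhdc8a (chr1:134178233-134192583), with folds from 2.56 to 3.89.

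Members in a gene body, or within 50 kb of the nearest coding TSS, were placed at the gene of that TSS, which put 5408 members (79.0%) at 3594 genes, or 16.9% of the coding genes counted. Of the 49242 distal eA peaks placed in this way, 11.0% were members, the value against which the counts of genes below are to be read. A single member was placed at 2482 genes, 2 at 719 and 3 or more at 393. A primed sustained peak was also placed at 1972 of these genes (54.9%), and an unprimed transient one at 730 (20.3%). Of the 10444 genes with any distal eA peak, 4798 had a primed sustained and 1617 an unprimed transient peak, and the overlap was not tested. Genes with members had a median span of 45230 bp against 15292 bp for all coding genes, many of which have no distal eA peak. The span of the genes with any distal eA peak is not given here. The part of gene length in the counts was not tested. Of the 3957 members inside a gene body, 825 (20.8%) lay in the body of a gene other than the one with the nearest TSS, so the placement names a neighbour and not a target. The annotation also holds a few very long bodies: 29 members lay inside Gm20388, with a span of 4434882 bp, and 20 inside Fgfr2, with 3009069 bp.

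The 12 genes with most members included genes of transcription factors, cell adhesion and signalling. Nckap5, which encodes NCK-associated protein, had 13 members among its 89 distal eA peaks, all 13 in its own body and all 13 with an lA H3K4me1 peak. Their folds ran from 2.43 to 4.01. Glis3, a zinc finger transcription factor gene, had 11 members among 64 distal peaks, with folds from 2.07 to 4.12. Meis2, a homeobox gene of the developing forebrain, had 10 members among 32, of which 5 lay in its own body, 2 in an intron of BC052040 and 3 between genes. Gmpr was the nearest start site of 9 members among 29 distal peaks, but none lay in its body: 8 lay in an intron of Atxn1, which encodes ataxin 1. Pde4d, a cAMP phosphodiesterase gene, had 9 members among 49, of which 6 lay in its own body. Zbtb20, a zinc finger gene with a role in astrocyte formation, had 9 among 70.

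At Slc35f1, Odz3 and Cdh6 the members were a larger share of the distal peaks than at the genes above. Slc35f1, of the solute carrier family, had 8 members among 19 distal peaks, and the highest of their folds was 7.43. Odz3, the teneurin 3 gene of neuronal wiring, also had 8 among 19, all 8 with an lA H3K4me1 peak, with folds from 3.30 to 5.91. Cdh6, a cadherin gene, had 7 among 14, all 7 in its own body and with an lA H3K4me1 peak. Utrn and Rora, which encode utrophin and a nuclear receptor, had 7 members each, among 39 and 50 distal peaks. The spans of the 12 genes ran from 38939 bp for Gmpr to 1301801 bp for Pde4d.

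Shisa6, which encodes an auxiliary protein of AMPA-type glutamate receptors, had members at 7 of its 8 distal eA peaks. Of the 12 genes, it was the only one whose promoter had an H3K27ac peak in eA and none in aNPC or lA. Its strongest member, at chr11:66380993-66381959, was 967 bp wide with a fold of 6.95 and a −log10 q of 30.5. The folds of the other 6 were 5.49, 3.16, 4.01, 4.43, 2.66 and 3.10. All 7 lay at least 72993 bp from any lA H3K27ac peak and at least 312172 bp from any aNPC one, and all 7 overlapped an H3K4me1 peak at all 3 stages. They fell into 3 places, with 2 and 2 members in introns of the gene and 3 upstream. Each intronic couple shared an H3K4me1 peak, as did 2 of the 3 upstream members, so these are not independent, while the strongest member had its own.

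**Figure D4:**
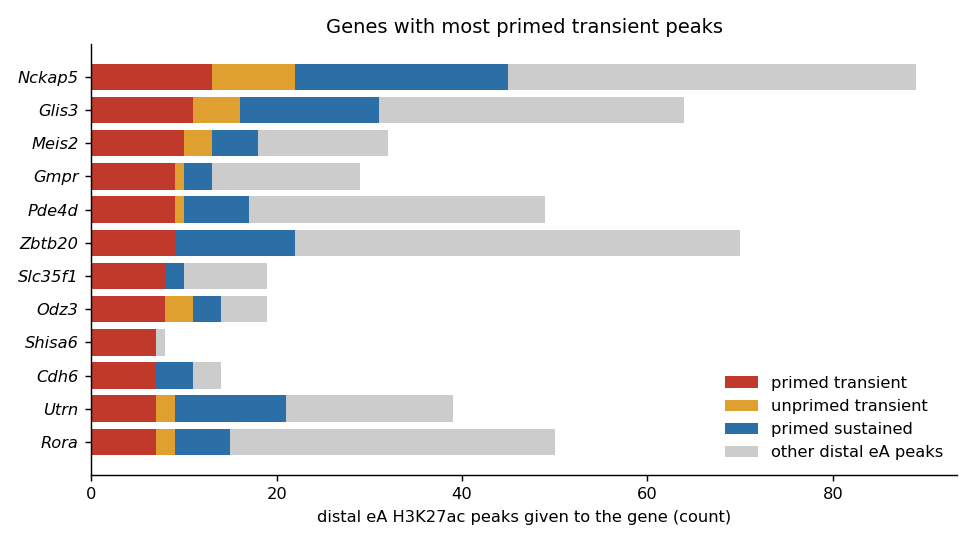
Distal eA H3K27ac peaks, as counts per gene, placed at the 12 genes with most primed transient peaks, split into primed transient, unprimed transient, primed sustained and other peaks. Shisa6 stands apart with 7 primed transient peaks of 8, while Nckap5 has 13 of 89.

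The promoters of the genes with members were mostly acetylated at every stage. An H3K27ac peak overlapped the 1 kb on either side of a coding TSS at all 3 stages in 63.9% of the 3594 genes and at no stage in 24.0%. It was in eA alone in 128 genes (3.56%, 95% Wilson interval 3.0 to 4.22), against 3.04% of the genes with any distal eA peak and 2.59% of all coding genes. For the genes with a distal eA peak, the shares for all stages and for none were 61.6% and 26.4%. A promoter acetylated throughout was thus far more frequent among these genes than one acetylated in eA alone.

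Among astrocyte markers, 7 of 20 genes had 13 members, or 10.6% of their distal eA peaks. Cd44, a hyaluronan receptor gene of astrocyte progenitors, had 5, with folds of 4.79, 3.68, 3.36, 1.97 and 3.16, and 4 of them kept an lA H3K4me1 peak. The first 2 lay side by side in an intron, at chr2:102698102-102698660 and chr2:102698982-102699210, over the same eA H3K4me1 peak. Aqp4, the water channel of astrocyte endfeet, had 2, with folds of 4.25 and 3.07, of which the second lay in an intron of Chst9. Slc1a2, a glutamate transporter gene, had 2 with a highest fold of 2.74. Sparcl1, which encodes a secreted synaptogenic protein, had 1 with a fold of 6.33, and Aldh1l1, a folate enzyme gene, 1 with a fold of 3.51. Members were thus found at some genes of astrocyte function, at a share near the 11.0% of all genes. No member was placed at Gfap, Aldoc, S100b, Gja1 or Slc1a3, which had 2, 2, 2, 3 and 19 distal eA peaks.

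Among progenitor and radial glia genes, 7 of 20 had 1 member each, or 7.0% of their distal peaks, and all 7 kept an lA H3K4me1 peak. The fold was 4.78 at Id3, 4.34 at the Notch target Hes1 and 4.22 at Msi1, an RNA-binding protein gene. Among neuronal genes, 7 of 18 had 8 members, or 23.5% of their 34 distal eA peaks. Slc17a7, the vesicular glutamate transporter gene, had 2 with a highest fold of 4.62, Snap25, of the synaptic vesicle fusion machinery, 1 with a fold of 4.64, and Elavl4, a neuronal RNA-binding protein gene, 1 with a fold of 4.37. The neuronal share was the highest of the 14 lists, and rests on 8 peaks. Among oligodendrocyte lineage genes, 2 of 13 had 3 members, or 9.09%. No member was placed at Neurod1, Neurog1 or Neurog2. Neurod1 and Neurog2 had no distal eA peak that could be a member, and Neurog1 had 2.

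Of the transcription factor genes, 7 of the 10 NFI and Sox genes counted had 18 members, or 9.47% of 190 distal peaks. Sox6 had 7 of these, with a highest fold of 3.64, all in its own body. Sox4, a Sox gene of progenitors and young neurons, had 3 within chr13:29080061-29080941, with folds of 5.70, 4.01 and 2.95 over the same eA H3K4me1 peak. Nfia, which drives the start of gliogenesis, had 3 among 52 distal peaks, with folds of 2.26, 2.604 and 3.35, and Nfib 2 among 42. AP-1 and ATF genes had a member at 4 of 14 (Fos, Jun, Batf3 and Mafk, 1 each), or 8.89% of distal peaks. Atf3 had none among 3 distal peaks. Runx and Tead genes had 14 members at 6 of 12, or 10.8%. Tead1, a Hippo pathway factor gene, had 7 of these. Ctgf, a target of the pathway, had 2 with a highest fold of 5.64. Runx3 had 1, while Runx2 had none among 18 distal peaks.

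Of the signalling genes, the gp130, JAK and STAT pathway, through which LIF acts, had 12 members at 9 of 20 genes, among 100 distal peaks. The ligand gene Lif had 1 with a fold of 3.59, and the receptor genes Lifr and Il6st had 1 each, with folds of 3.38 and 6.16. Il6st encodes gp130 itself, and its member lay 35320 bp upstream, 3665 bp from the nearest lA H3K27ac peak. The kinase gene Jak2 had 3, with folds of 6.54, 1.74 and 2.32, and Jak1 2. The inhibitor gene Socs3 had 1 with a fold of 2.72, and Stat3 had none among 4 distal peaks. Members thus lay at the ligand, both receptor chains, kinases and an inhibitor of this pathway. BMP and TGF-beta genes had 15 members at 9 of 24 (8.52% of distal peaks), with most, 3, at Smad6, an inhibitory Smad gene. FGF and EGF genes had 18 at 10 of 22 (10.1%), with most, 5, at the receptor gene Erbb4. Notch genes had 6 at 5 of 19 (5.17%).

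Of the genes for cell shape and surroundings, matrix and adhesion genes had 16 members at 11 of 26, or 11.9% of distal peaks, among them 2 at Col1a1, a collagen gene, and 2 at Itga3, an integrin gene. Cytoskeleton genes had 18 at 11 of 23, or 11.5%. Vcl, which encodes vinculin of focal adhesions, had 4 with a highest fold of 4.80. Of the 19 genes named in the study, 7 had 15 members, or 8.24%. Those genes include known markers and factors that the study shortlisted from these cultures, and all lists were drawn up with earlier results of these data known. No list was tested.

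Among the 12 members with the highest folds were those at Xcr1, a chemokine receptor gene, with a fold of 12.4, at Smarcc2, a chromatin remodelling gene, with 11.5, at Magi1, a junction scaffold gene, with 10.4, and at Mtap7, a microtubule protein gene, with 9.99. The Smarcc2 member and that at Pisd, with a fold of 9.70, had no lA H3K4me1 peak, while the other 10 of these 12 had one. The Magi1 and Mtap7 members were 895 and 955 bp wide and those at Xcr1, Smarcc2 and Pisd 244 to 262 bp. Words of 31 bases were looked up elsewhere in mm9, because fragments of repeated sequence can pile up. At Xcr1, 27.6% of the words of the 200 bp window occurred elsewhere, while the windows at Smarcc2, Magi1, Mtap7 and Pisd held no such word. Of the 100 members with the highest folds, 85.0% had no repeated word. Over all members, 6317 (92.3%) had none, against 90.1% of unprimed transient and 92.2% of primed sustained peaks. The Xcr1 site also had narrow H3K4me1 peaks of high fold, 19.1 over 294 bp in aNPC and 15.4 over 320 bp in eA. Both stood at percentile 100 of their lists, and the peaks were called without input. The part of repeated sequence in the fold at Xcr1 was not tested.

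The primer sequences of the study were placed on mm9. Of 52 primer pairs, 6 were labelled for q-PCR and had no locus in the genome. The other 46 had 1 locus each, shared by 2 pairs in 1 case, and 34 of these pairs lay in an eA H3K27ac peak and 1 in a member. This was the Cav3 amplicon, chr6:112374038-112374102, in a member of 767 bp at chr6:112373719-112374485 with a fold of 4.37. The sequence of the Gm17462 member above is the 200 bp around the summit of this peak, which begin inside the amplicon and hold only its end. The member is named for the nearest coding TSS 13363 bp away. The nearest H3K27ac peak lay 3272 bp away in aNPC and 10008 bp away in lA, and H3K4me1 peaks covered it in aNPC, eA and lA. The peak with the Ston2 amplicon met every condition but the distance, with its centre 969 bp from a TSS. The peak with the Nfasc amplicon, with a fold of 3.11, was unprimed transient, and that with the Lrrc4 amplicon had no eA H3K4me1 peak.

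Short letter matches were counted in the 200 bp around each summit, on both strands, and the shares of all distal eA peaks of the same window length are given for comparison. The letters were CAGCTG (bHLH), GGAATG (TEAD), ACAATG (Sox), TGCCAAG (NF1 half-site), TTGGC and GCCAA 5 bases apart (NF1 full site), TGACTCA (AP-1), TGACGTCA (CRE), TGTGGTT (RUNX), TTCCNGGAA (STAT), TAATTA (homeobox), ATGCAAAT (POU) and TGTTTAC (forkhead). An NF1 half-site can overlap a full site, and a match is a string of letters and not a bound site. Any of the motifs was found in 48.0% of members, 47.1% of unprimed transient, 45.9% of primed sustained and 45.3% of all distal peaks.

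The bHLH letters were the most frequent in members, at 14.7% (95% Wilson interval 13.8 to 15.5), and in all distal peaks, at 13.2%. They were in 11.2% of unprimed transient peaks (10.1 to 12.5), where the TEAD and Sox letters stood higher, at 12.6% and 11.3%. The AP-1 letters, as in the Lrp2 member, were found in 4.47% of members (4.01 to 4.99), 6.56% of unprimed transient peaks (5.66 to 7.58), 4.34% of primed sustained peaks and 4.08% of all distal peaks. In windows of 400 bp the members' AP-1 share was below those of primed sustained and all distal peaks. The intervals of members and unprimed transient peaks did not overlap for these 2 motifs, in opposite directions, and the differences were not tested. The NF1 half-site was in 6.21% of members (5.66 to 6.81), 5.22% of unprimed transient, 5.48% of primed sustained and 5.09% of all distal peaks. The Sox letters, as in the Xpr1 member, were in 11.4% of members and 10.5% of all distal peaks, and the TEAD letters, as in the Gm17462 member, in 11.6% and 11.6%. The RUNX letters were in 4.06% and 4.24%, the homeobox letters in 4.63% and 4.18%, and the forkhead letters in 2.86% and 2.98%. The POU letters were in 1.40% and 1.03%, the STAT letters in 0.716% and 0.667%, and the CRE letters in 0.146% and 0.147%. The NF1 full site, as in the Nub1 member, was in 4 members (0.0584%) and 18 of all distal peaks. Median GC content was 47.5% in members, 46.0% in unprimed transient and 47.5% in primed sustained peaks, and the part of base composition in these shares was not tested. The median distance of a match from the summit was 47.0 bp for bHLH and 49.5 bp for AP-1, near the middle of the 100 bp on each side.

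**Figure D5:**
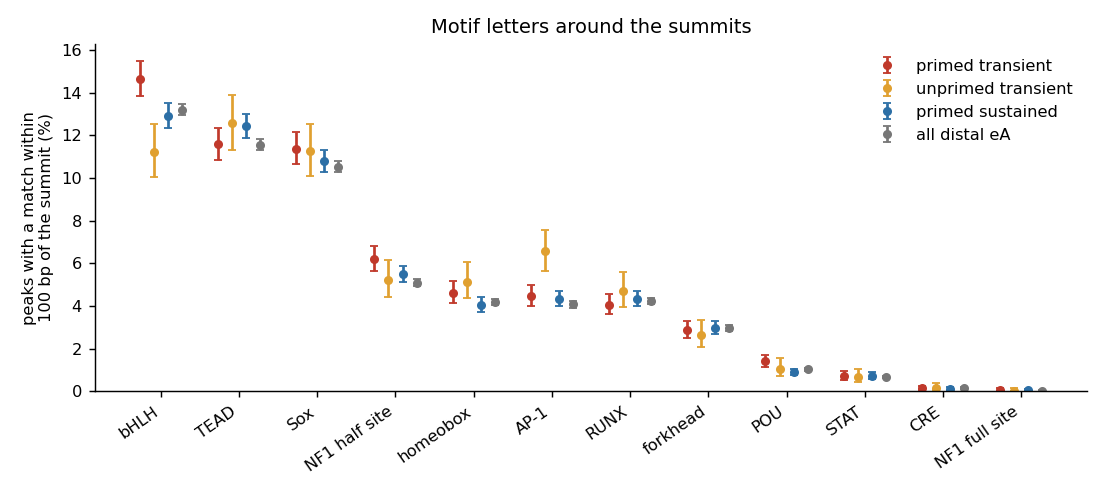
Share of peaks, in percent, whose 200 bp around the summit held the letters of each motif, for primed transient, unprimed transient, primed sustained and all distal eA peaks, with 95% Wilson intervals as bars. The bars of primed and unprimed transient peaks do not overlap for bHLH (14.7% and 11.2%) and AP-1 (4.47% and 6.56%).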

How the data were processed

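H3K27ac and H3K4me1 were measured by ChIP-seq in aNPC, eA and lA. The authors aligned reads uniquely to mm9 with Bowtie, merged the 2 replicates with SAMtools 0.1.19, as the submitters' processing notes and the study's methods say, and called peaks with MACS2 without input. The deposited fold of a peak is a ratio of fragments at the summit over the local background, and the deposited −log10 values used are those of the q-value. Folds and q-values were not compared between lists, which differ in depth and calling level.

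The members, gene lists, motifs and tests were chosen with earlier results of these data known. Overlap was 1 bp or more. Coding TSSs, introns and genes came from GENCODE M1 on mm9. The named genes are the 12 with most members, those of the 12 highest folds, up to 4 per list, the genes of the study, and genes whose amplicon lies in a member. Shares have 95% Wilson intervals. The 4 Fisher's exact tests (two-sided) were adjusted by Benjamini-Hochberg over all 4. Fragment counts were inferred from the steps of the fold, assuming a pseudocount of 1. Scripts used Python 3.11.15, NumPy 2.4.6, pandas 2.3.3, SciPy 1.17.1, statsmodels 0.14.6, pysam 0.24.0 and matplotlib 3.10.9 and were tested on simulated data.

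The alternatives were other overlap rules, q filters, equal list lengths, a TSS distance of 2.5 kb, every annotated TSS, a margin of 500 bp, a motif window of 400 bp and no limit of 50 kb. Peaks without repeated words, of like width, or of like H3K4me1 level were alternatives chosen after seeing the data. RNA-seq and knockdown samples were not analysed here, and 8 of the 51 samples of the series were not assigned to a group because their labels conflict. A few items that the rule for named genes and sequences selects are not reported here.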

Additional observations from a re-analysis of the deposited data

How the results depend on the processing

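No paired analysis was possible because the authors merged the replicates of a stage before peak calling, and for the same reason no replicate could be left out. The number of members ran from 3729 to 8091 over 9 alternatives. It was 3729 when a −log10 q of at least 5 was asked of the eA H3K27ac peak and 3777 when no aNPC or lA H3K27ac peak was allowed within 500 bp, both from fewer peaks meeting a stricter rule. The difference in lA H3K4me1 share ran from 12.04 to 18.0 points against unprimed transient peaks and from -11.4 to -7.35 points against primed sustained peaks, past the threshold in all 11 alternatives. The intron share differed by -7.42 to -2.76 points from unprimed transient peaks over 9 alternatives, and its adjusted p was 0.0506 at -2.76 points under the q filter in every list; the cause was not tested. Against primed sustained peaks the intron difference ran from 2.23 to 3.84 points and passed in all 9. Genes with a member numbered 4194 without the 50 kb limit. In 400 bp windows any motif was found in 74.6% of members and 72.4% of all distal peaks. The intervals of members and unprimed transient peaks were then also apart for the NF1 half-site, at 14.1% (13.3 to 14.97) and 10.7% (9.58 to 11.98) beside 11.2% of all distal peaks, and for POU, at 3.17% (2.78 to 3.61) and 2.08% (1.59 to 2.71) beside 2.39%. The AP-1 share of members stood above those of primed sustained and all distal peaks at 200 bp and below both at 400 bp, at 9.44% (8.77 to 10.15) against 11.0% (10.5 to 11.6) and 9.71%. Summit counts of about 17 fragments, inferred for 48.0% of members, limit what the absence of a peak at another stage can show.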
